A study of Mus musculus with 20 samples.

Results

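In wild-type C2C12 cells, 2601 regions of open chromatin were called in both control libraries of day 1 and in no library of day 0 or day 5. They made up 2.57% of the 101352 regions obtained by merging the 20 peak lists of the series wherever peaks shared at least 1 bp, and 6.34% of the 41039 regions called in both wild-type day 1 control libraries. A merged region counts as called where a library's own list puts a peak on it, with 1 bp of overlap enough. Members therefore had a peak in both WT D1 CTL lists and none in the 6 lists of WT D0, WT D5 CTL and WT D5 MR. The members were chosen by the calls of these 8 lists, so those calls and strengths are given as a description. The calls of WT D1 MR and of all KO libraries took no part in the choice. Their peaks did take part in the merge. A wide peak of theirs that joins a WT D1 peak to a WT D0 or D5 peak keeps that region out of the members. How often this occurred was not tested.

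C2C12 is a line of mouse myoblasts, the precursors of muscle fibres, and ATAC-seq maps open chromatin by inserting adapters into accessible DNA with a transposase. The study sampled wild-type (WT) and Setd2 knockout (KO) cells at D0, D1 and D5 during differentiation, with control medium (CTL) or methionine restriction (MR) at D1 and D5, and 2 libraries in each of 10 groups. The 10 groups were WT D0, WT D1 CTL, WT D1 MR, WT D5 CTL, WT D5 MR and the 5 KO groups of the same days and media, all from C2C12. The D0 titles name no medium. WT libraries were numbered as replicates, whereas the 2 libraries of each KO group came from KO line 1 and KO line 2, so a KO group holds 1 library of each line. Whether the libraries came from separate cultures is not given, so the spread between them may be technical. The deleted part of Setd2 and the way the lines were made are not given in the sources used here, and peak lists do not check the knockout.

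Open chromatin marks promoters and enhancers, the short DNA stretches to which transcription factors bind. When myoblasts differentiate they leave the cell cycle, switch on Myog and fuse into myotubes, and basic helix-loop-helix factors such as MyoD bind E-boxes in many of the enhancers that open. Some of these sites are open only for part of the process. Setd2 trimethylates histone H3 along transcribed genes, a reaction that depends on S-adenosylmethionine, which cells make from methionine.

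The lists of WT D0, D1 and D5 held 20847 to 69881 peaks, and those of KO 644 to 63530. Of these, the D5 lists of KO line 1 held 644 peaks in CTL and 1881 in MR. The WT D5 CTL lists were also short, with 22465 and 20847 peaks against 60173 and 45545 in WT D1 CTL. They held 21.0% and 19.6% of all regions, so a missing call there is a weak sign of absence at D5. The part of list length in the choice of members was not tested. Background pileup, recovered from each list under assumed peak-caller formulas as a stand-in for depth, was 3.17 and 3.22 fragments in WT D1 CTL, 3.17 to 3.53 in WT D1 MR, 2.30 to 3.50 in KO D1, and 4.71 to 5.88 in the WT D0 and D5 libraries. It was thus higher in the 6 lists from which the members were absent than in the 2 lists that held them, and its part in the choice of members was not tested. Of 10 muscle markers, 9 had a gene end lying no more than 1 kb from a peak of each WT D1 CTL library, 8 and 9 in WT D1 MR, 6 and 7 in KO D1 CTL, and 6 and 4 in KO D1 MR. Myog was called in 8 of the 10 WT libraries, all at D1 and D5, and in 0 of the 10 KO libraries. Of 5 fibroblast, 4 adipocyte, 5 osteoblast and chondrocyte and 5 neural markers, WT D1 CTL libraries held 1, 1, 2 and 0. Among the fibroblast markers Lum, Pdgfra and Dpt were called at a gene end in no library, and among the neural markers Neurod1, Rbfox3 and Gfap.

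Few members lay at promoters. Of the 2601 members, 57 (2.19%) overlapped the window from 250 bases before to 50 after a start in RefSeq's promoter table (build GRCm38.p6), against 18.8% of the other regions called in both WT D1 CTL libraries and 8.81% of all regions. The table has windows for 17274 of 21631 protein-coding genes. The upstream sequences of 4 genes, 250 bases each, are printed because a member lies over part of them. Fgf7 encodes a growth factor, Prkcd a protein kinase C, Cog7 a subunit of the Golgi-tethering COG complex and Sin3a a scaffold of histone deacetylase complexes. Capitals mark every CANNTG, the E-box, and in Prkcd also 1 GGAATG, the element bound by Tead factors. The member covered 211 of the 250 bases of Fgf7, 95 of Prkcd, 128 of Cog7 and 79 of Sin3a.
Fgf7 (chr2:126034408-126034657, plus strand): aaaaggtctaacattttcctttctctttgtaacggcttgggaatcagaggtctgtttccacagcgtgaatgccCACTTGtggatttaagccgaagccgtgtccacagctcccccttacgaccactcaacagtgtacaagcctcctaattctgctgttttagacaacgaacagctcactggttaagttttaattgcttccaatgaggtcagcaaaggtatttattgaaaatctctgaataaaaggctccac
Prkcd (chr14:30610311-30610560, minus strand): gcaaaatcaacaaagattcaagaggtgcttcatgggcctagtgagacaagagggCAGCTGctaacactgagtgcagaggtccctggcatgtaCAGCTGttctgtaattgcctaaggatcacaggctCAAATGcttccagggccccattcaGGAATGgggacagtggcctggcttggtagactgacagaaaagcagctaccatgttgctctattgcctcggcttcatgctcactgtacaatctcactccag
Cog7 (chr7:121981694-121981943, minus strand): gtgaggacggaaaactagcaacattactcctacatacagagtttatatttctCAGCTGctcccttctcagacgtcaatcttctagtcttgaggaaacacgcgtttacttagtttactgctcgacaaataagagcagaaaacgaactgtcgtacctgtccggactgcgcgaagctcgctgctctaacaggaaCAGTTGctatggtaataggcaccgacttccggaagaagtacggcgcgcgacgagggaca
Sin3a (chr9:57071790-57072039, plus strand): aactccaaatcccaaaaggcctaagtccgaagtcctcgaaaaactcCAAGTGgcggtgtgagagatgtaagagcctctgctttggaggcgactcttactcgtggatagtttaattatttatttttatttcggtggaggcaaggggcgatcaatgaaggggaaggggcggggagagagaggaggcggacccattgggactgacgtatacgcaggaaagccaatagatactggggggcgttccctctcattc
Prkcd and Cog7 hold the E-box form CAGCTG, 2 copies in Prkcd and 1 in Cog7. The other form in Cog7 is CAGTTG, and the single E-boxes of Fgf7 and Sin3a are CACTTG and CAAGTG. By position, the 2 CAGCTG of Prkcd, the CAGTTG of Cog7 and the E-box of Fgf7 lie under the member. The CAGCTG of Cog7, the E-box of Sin3a, and the CAAATG and GGAATG of Prkcd lie outside it. The Fgf7 member (chr2:126034447-126034833) had a −log10 q of 16.6 and 8.42 in WT D1 CTL, 7.17 and 4.21 in WT D1 MR, 7.26 and 6.82 in KO D1 CTL lines 1 and 2, 5.67 in KO D1 MR line 1, 15.5 in KO D0 line 1 and 5.04 in KO D5 CTL line 2. By contrast the Prkcd member (chr14:30610438-30610532) was called in WT D1 CTL alone, at 16.8 and 7.82. The Cog7 member (chr7:121981679-121981821) stood at 12 and 4.81 in WT D1 CTL, 7.84 and 6.88 in WT D1 MR and 17.9 in KO D0 line 1, with no other KO call. At Sin3a (chr9:57071961-57072044) the values were 6.87 and 5.24 in WT D1 CTL, 6.01 in WT D1 MR replicate 1, 3.21 in KO D1 CTL line 2 and 7.47 in KO D0 line 1. Of these 4 promoter members, 3 were thus open in KO myoblasts of line 1 at D0, and Prkcd was not. That library held 34 of all 57 promoter members, 20.2% of all members and 60.6% of all regions. The Prkcd window lies inside the gene, 15085 bp from its nearest end.

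Motifs were counted on both strands in whole windows of 300 bases. Of 60 windows with a member, 58 held no other region of both WT D1 CTL libraries. The E-box CANNTG was in 46 of these 58 (79.3%), in 69.0% of all 21045 windows of the table, and in 60.1% of the 8823 windows overlapped by another region of both WT D1 CTL. CAGCTG, itself one form of CANNTG, was in 16 windows (27.6%), against 15.7% and 15.1%. For TGANTCA, the AP-1 site, the shares were 5.17%, 7.04% and 4.43%. GGAATG was in 17.2%, 13.5% and 11.1%, and the Runx core TGTGGT in 15.5%, 14.7% and 11.7%. One window held the MEF2 motif (1.72%, against 2.61% and 1.14%). A match says only that these letters occur in the window.

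MicroRNA hairpins within 5 kb were found for 34 members (1.31%), against 1.19% of the other regions of both WT D1 CTL and 1.04% of all regions. One pair of members lay by the Mir322 and Mir503 hairpins on chromosome X. The mature 5p strands of both are induced during myoblast differentiation and target cell cycle genes. They are printed because they share the start of their seeds, bases 2 to 8, in capitals. Both were chosen after their values were seen, and the sequences are RefSeq's.
mmu-miR-322-5p (chrX:53054306-53054327, minus strand): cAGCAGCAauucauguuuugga
mmu-miR-503-5p (chrX:53054027-53054049, minus strand): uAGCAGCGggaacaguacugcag
The seeds AGCAGCA and AGCAGCG differ in their last base. The member at chrX:53053007-53053100 lay 883 bp from the Mir503 hairpin and 1154 bp from that of Mir322. It had a −log10 q of 1.57 and 2.17 in WT D1 CTL, 5.59 and 3.94 in WT D1 MR and 3.46 in KO D1 CTL line 2. Its neighbour at chrX:53052681-53052752 was called in WT D1 CTL alone, at 2.43 and 1.41. Both were weak peaks in the libraries that chose them. The first had higher values in both MR libraries, on a scale that also depends on each library's depth.

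The members were weaker than most peaks of day 1. Their median −log10 q was 5.40 in WT D1 CTL replicate 1 and 3.20 in replicate 2, where all peaks of those lists had medians of 7.78 and 6.56. The median member stood at the 34.6th percentile of replicate 1 and the 20.8th of replicate 2, and 25.6% and 8.73% of members were above the list medians. In fold enrichment over background the members' medians were 4.25 and 3.58, against 4.91 and 4.60 over the lists. When the 41039 regions of both WT D1 CTL libraries were put into 5 equal classes by the lower of their 2 percentiles, 1458 members fell in the weakest class and 800, 274, 65 and 4 in the next. Members were 17.8% of the weakest class and 0.0487% of the strongest.

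The edge of the definition ran through weak calls. The members with the lowest strength in the weaker of the 2 lists were by Hspa5, the endoplasmic reticulum chaperone BiP, at a −log10 q of 1.13 and 1.51, by 4930404N11Rik at 2.12 and 1.21, and by Il1r1, the interleukin-1 receptor, at 1.90 and 1.26. Just outside were regions that a single weak peak of WT D5 MR replicate 2 kept out, by Nenf (1.14), Diras2 (1.14) and Anxa7 (1.18). In all, 2135 regions of both WT D1 CTL had 1 call in the 6 lists of D0 and D5, and in 1137 of them this call was in WT D0 replicate 2. A further 7803 regions were called in 1 of the 2 WT D1 CTL libraries and in no WT D0 or D5 library, 7128 of them in replicate 1, the longer list. Regions called in all 6 lists of D0 and D5 numbered 15836, or 38.6% of those of both WT D1 CTL.

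**Figure D1:**
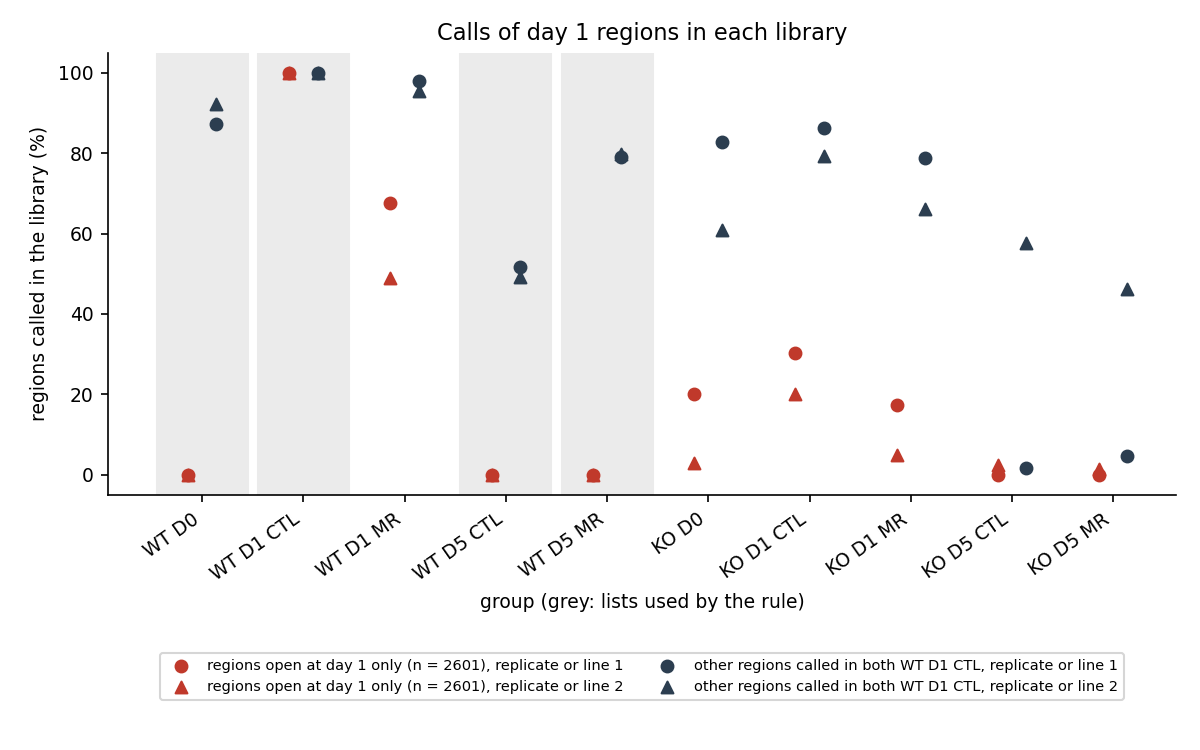
Percent of regions called in each library, for the 2601 regions open at day 1 only (red) and the other 38438 regions called in both WT D1 CTL libraries (dark), by group; circles are replicate or line 1 and triangles replicate or line 2, and grey bands mark lists used by the rule. Outside the grey bands the red points are highest in WT D1 MR (67.7% and 48.9%) and lower in every KO library.

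In methionine-restricted WT cells at day 1, members were called less often than the other regions of both WT D1 CTL. Their share in neither library was near that of all regions. WT D1 MR replicate 1 held 1760 members (67.7%, 95% Wilson interval 65.8 to 69.4) and replicate 2 held 1271 (48.9%, 46.9 to 50.8). Both libraries held 1166 (44.8%), 1 of the 2 held 699 (26.9%), and neither held 736 (28.3%). Among the other regions of both WT D1 CTL, 94.9% were in both MR libraries and 1.59% in neither, and over all 101352 regions the shares were 52.4% and 30.9%. The Wilson intervals cover counting error only. With 2 libraries against 2 the smallest two-sided exact p is 0.33, so the shares carry no test. Counting the 20000 strongest peaks of every library alone, 639 regions met the definition and 17.1% of them were in both WT D1 MR libraries.

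Calls in MR followed the strength of the peak in control medium, in members as in other regions. From the weakest class to the fourth, members were in both MR libraries in 38.2%, 47.6%, 63.1% and 80.0% of cases, and the other regions in 83.7%, 92.5%, 97.0% and 99.4%. Within each of these classes the members' share was thus the lower one. By the rule the other regions have at least 1 call in the WT D0 and D5 lists and members have none. This gap therefore cannot be read apart from the rule. The members that MR libraries lacked included strong peaks. The strongest of them was inside R3hdm2 (chr10:127392382-127392878, 13.7 and 12.5 in WT D1 CTL). Next came regions by Proser2 (chr2:6097514-6097583, 17.5 and 11.1), Pard3, a polarity gene (chr8:127055133-127055422, 11.7 and 10.9), Pik3r3, a regulatory subunit of phosphoinositide 3-kinase (chr4:116216278-116216357, 12.8 and 8.57), and, 88983 bp away, Adgrl3, an adhesion receptor (chr5:81916808-81916877, 10.6 and 8.09). None of these 5 had a peak in any other library, KO included.

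**Figure D2:**
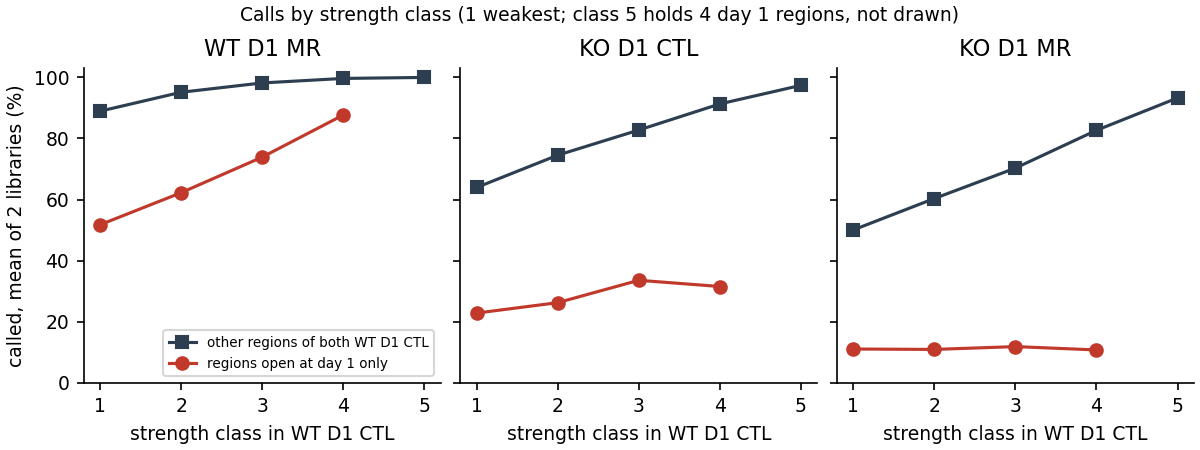
Percent of regions called (mean of the 2 libraries of the group) in WT D1 MR, KO D1 CTL and KO D1 MR, against strength class in WT D1 CTL (1 weakest), for the regions open at day 1 only (red) and the other regions of both WT D1 CTL (dark). The red line rises from 51.7% to 87.7% in WT D1 MR, stays between 22.8% and 33.6% in KO D1 CTL and between 10.8% and 11.9% in KO D1 MR.

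Because both control libraries chose the members, the choice was repeated with 1 library so that the other served as a replicate outside it. Of the 9729 regions called in WT D1 CTL replicate 1 and absent from WT D0 and D5, 26.7% were called in CTL replicate 2, 49.7% in MR replicate 1 and 31.6% in MR replicate 2. Of the 3276 regions chosen with CTL replicate 2, 79.4% were called in CTL replicate 1, 63.9% in MR replicate 1 and 45.5% in MR replicate 2. The share in the other control library was thus below the MR shares in one direction and above them in the other, and replicate 2 had the shorter list. With the 20000 strongest peaks of each list the order turned: of regions chosen with CTL replicate 1, 38.5% were in CTL replicate 2 and 15.5% in MR replicate 2. KO D1 CTL lines 1 and 2 held 24.9% and 17% of the regions chosen with replicate 1, and KO D1 MR lines 1 and 2 held 13.6% and 4.84%. For the regions chosen with replicate 2 the KO shares were 29.6%, 19.5%, 16.8% and 5.62%. All 8 KO shares were below the 4 WT D1 MR shares. The same order held over all regions of CTL replicate 1, of which 87.4% and 80.2% were called in WT D1 MR, 71.9% and 63.3% in KO D1 CTL and 62.6% and 49.9% in KO D1 MR, so it is not particular to the chosen regions.

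**Figure D3:**
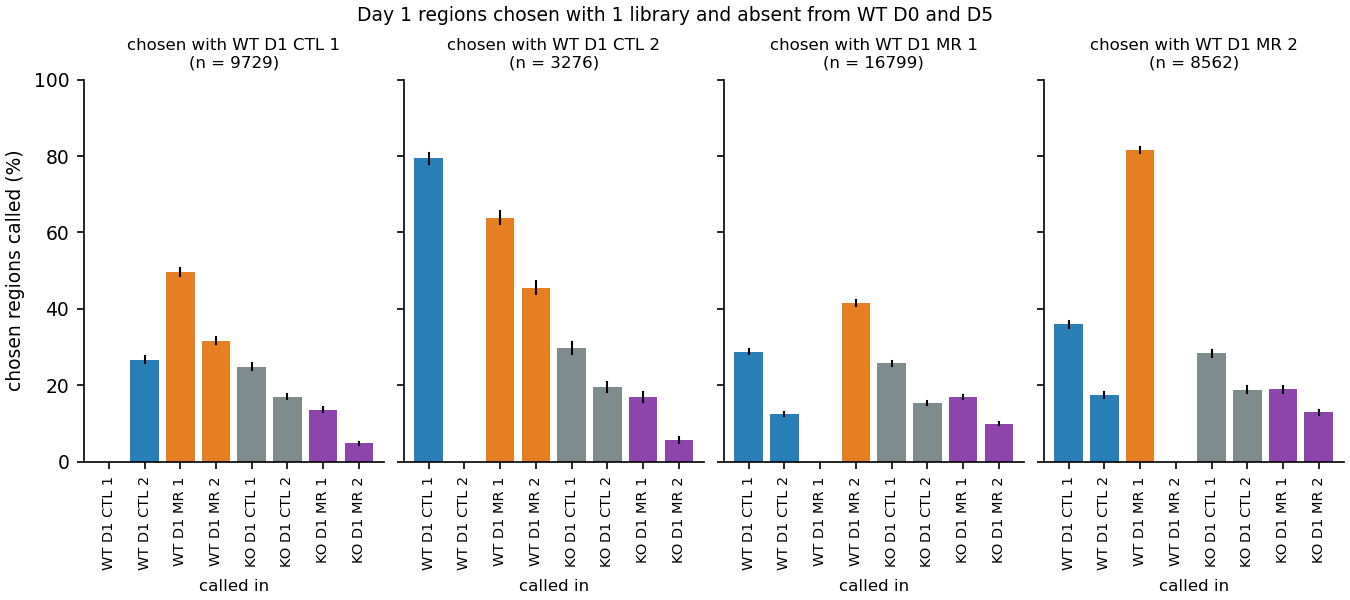
Percent of the regions chosen with 1 WT D1 library and absent from WT D0 and D5 that were called in each other D1 library, with 95% Wilson intervals as lines; colours mark the group called in. In each panel the 4 KO bars are lower than the bars of the other WT D1 libraries, except that KO D1 CTL and KO D1 MR line 1 exceed WT D1 CTL replicate 2 where an MR library made the choice.

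The same definition with the 2 MR libraries in place of the control libraries gave 6985 regions, 6.89% of all. Of these, 1166 were also members, which is 44.8% of the members and 16.7% of the 6985. WT D1 CTL replicates 1 and 2 held 39.1% and 19.4% of the 6985. KO D1 MR lines 1 and 2 held 20.6% and 14.4% of them, KO D1 CTL 30.3% and 20.6%, and KO D0 32.4% and 4.91%.

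Fewer members were open in Setd2 KO cells at day 1. In control medium KO line 1 held 790 members (30.4%, 28.6 to 32.2) and line 2 held 524 (20.1%, 18.6 to 21.7). Under MR the lines held 452 (17.4%, 16 to 18.9) and 127 (4.88%, 4.12 to 5.78). The other regions of both WT D1 CTL were called in 86.3% and 79.4% of cases in KO D1 CTL and in 78.7% and 66.1% in KO D1 MR. Over all regions the shares were 58.9%, 43.0%, 47.2% and 33.6%. Both KO D1 CTL libraries held 317 members (12.2%), both KO D1 MR libraries 73 (2.81%) and all 4 held 60 (2.31%), against 36.6%, 28.9% and 26.5% of all regions. At least 1 of the 4 held 1035 members (39.8%), and no KO library of any day held 1481 (56.9%), against 68.4% and 21.8% of all regions. With the 20000 strongest peaks per list the share in both KO D1 CTL libraries was 4.23%.

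From class to class, the KO shares of members changed by fewer percentage points than those of other regions. In KO D1 CTL the mean share over the 2 lines was 22.8%, 26.3%, 33.6% and 31.5% of members from the weakest class to the fourth, and 64.0%, 74.5%, 82.8% and 91.3% of the other regions. In KO D1 MR the members' shares were 11.1%, 10.9%, 11.9% and 10.8%, and those of the other regions 50.1%, 60.3%, 70.3% and 82.7%. As with WT D1 MR, the gap between members and other regions cannot be read apart from the rule. Background pileup in KO line 1 was 3.50 in CTL and 3.15 in MR, near the WT D1 values, and that of line 2 was 2.30 and 2.76. Its part in the lower KO shares was not tested, nor was that of the lower count of muscle markers called in KO D1.

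Methionine restriction went with fewer member calls in both KO lines. In line 1, 374 members were called in D1 CTL and not in D1 MR (background over all regions 14%), and 36 in D1 MR and not in D1 CTL (background 2.28%). In line 2 the counts were 422 (background 13.3%) and 25 (background 3.92%). As shares of the 2601 members these are 14.4% and 1.38% in line 1 and 16.2% and 0.961% in line 2. Gains were below the background. Only called regions can be lost, and KO D1 CTL held fewer of the members than of all regions. Line 1 lost 374 of 790 called members, against 14% of all regions where 58.9% were called. Line 2 lost 422 of 524, against 13.3% where 43.0% were called. With called regions as the base, losses were thus more frequent among members. The comparison is not matched by strength. Called members had median percentiles of 28.9 and 29.0 in KO D1 CTL lines 1 and 2. The KO D1 MR lists were also shorter, with 48460 and 35201 peaks against 61045 and 46664. The part of strength and list length in these losses was not tested.

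WT and KO cells under methionine restriction could be compared with lists whose calls took no part in the rule, although their peaks entered the merge. The members were chosen as peaks of WT D1 cells, which favours calls in WT. Both WT D1 MR libraries and neither KO D1 MR library held 858 members, or 33.0% (31.2 to 34.8), where 13.9% of all regions showed this pattern. The reverse pattern held for 3 members (0.115%), against 1.26% of all regions. Among the other regions of both WT D1 CTL the 2 shares were 13.9% and 0.0598%. At 2 against 2 no exact p can go below 0.33, and with the 20000 strongest peaks per list the first share was 12.4%. Background pileup was 3.53 and 3.17 in WT D1 MR and 3.15 and 2.76 in KO D1 MR, and its part in this difference was not tested.

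Whether the members were also day 1 regions in KO cells was asked of the KO lists alone. The 4 KO D1 libraries were set against 6 KO libraries of D0 and D5 with a two-sided exact permutation test on the calls of each region. A p of 0.05 or lower can be reached by 33053 regions, given how many libraries called them. Of these, 0 passed at a Benjamini-Hochberg adjusted p of 0.05 (background 0%), and the lowest adjusted p was 0.431 in this exact permutation test. Its smallest possible p is 0.00476, so regions can pass the adjustment only where very many of them reach low values together. Just 185 of all regions were called in all 4 KO D1 libraries and in no KO D0 or D5 library. The count of 0 therefore cannot decide the question. At an unadjusted p under 0.05 there were 2514 regions, or 7.61% of those tested, all called more often at D1. Among members 390 could be tested, 0 passed, and 62 (15.9%) had an unadjusted p under 0.05. The D5 lists of KO line 1 are nearly empty and count as absence here. Without them 6494 regions could be tested and again 0 passed, with 192 (2.96%) at an unadjusted p under 0.05, and members gave 6 of 112 (5.36%).

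Some members were open in KO myoblasts, at lower shares than other regions. KO D0 line 1 held 525 members (20.2%, 18.7 to 21.8) and line 2 held 80 (3.08%, 2.48 to 3.81), while WT D0 held none by the rule. Over all regions these libraries held 60.6% and 28.7%, and of the other regions of both WT D1 CTL 82.7% and 60.9%. Line 1 had 420 members called in D1 CTL and not in D0 (background 10.6%) and 155 called in D0 and not in D1 CTL (background 12.3%). Line 2 had 452 (background 15.9%) and 8 (background 1.7%). In both lines more members were gained than lost from D0 to D1. As shares of the members these were 16.1% and 5.96% in line 1 and 17.4% and 0.308% in line 2. These shares are of all members, but only regions called at D0 can be lost and only uncalled ones gained. At D0, 20.2% and 3.08% of members were called, against 60.6% and 28.7% of all regions. Line 1 lost 155 of its 525 called members and line 2 lost 8 of 80. With regions called at D0 as the base, losses were more frequent among members than over all regions, in both lines. Called members were weak in KO D0 too, with median percentiles of 31.7 and 18.7. The part of strength in these losses was not tested. With uncalled regions as the base, gains were less frequent among members. Background pileup was 5.20 in KO D0 line 1 and 2.52 in line 2. At D5 line 2 held 67 members in CTL (2.58%) and 39 in MR (1.5%), against 28.7% and 21.4% of all regions. Line 1 held 0 at D5, where a count of 0 allows up to 0.115% (3 counts of 2601), but its lists are too short to read absence of open chromatin from them.

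Members lay away from gene ends. Within 1 kb of an end of a protein-coding gene were 294 members (11.3%, 10.1 to 12.6), against 26.1% of the other regions of both WT D1 CTL and 15.8% of all regions. Elsewhere in a gene body were 1347 (51.8%), against 42.6% and 45.5%, and outside genes 960 (36.9%), against 31.3% and 38.7%. The median distance to the nearest gene end was 14743 bp for members, 9247 bp for the other regions and 15087 bp for all regions. More than 100 kb from any gene end were 308 members (11.8%), against 8.49% and 13.2%. Where members with a WT D0 or D5 peak within 1 kb were left out, 7.12% lay at gene ends. The gene table gives no strand or exons, so starts cannot be told from ends and exons not from introns.

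The share at gene ends differed between members by their KO calls. It was 24.2% among the 525 members called in KO D0 line 1, 13% among the 1035 called in at least 1 KO D1 library and 8.64% among the 1481 in no KO library. Members in both WT D1 MR libraries had 12.1% and those in neither 8.56%. In the weakest strength class 12.2% of members and 17.4% of other regions of both WT D1 CTL lay at gene ends. The gap was wider in the second class (11.6% and 21.3%) and in the third (5.84% and 24.6%).

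**Figure D4:**
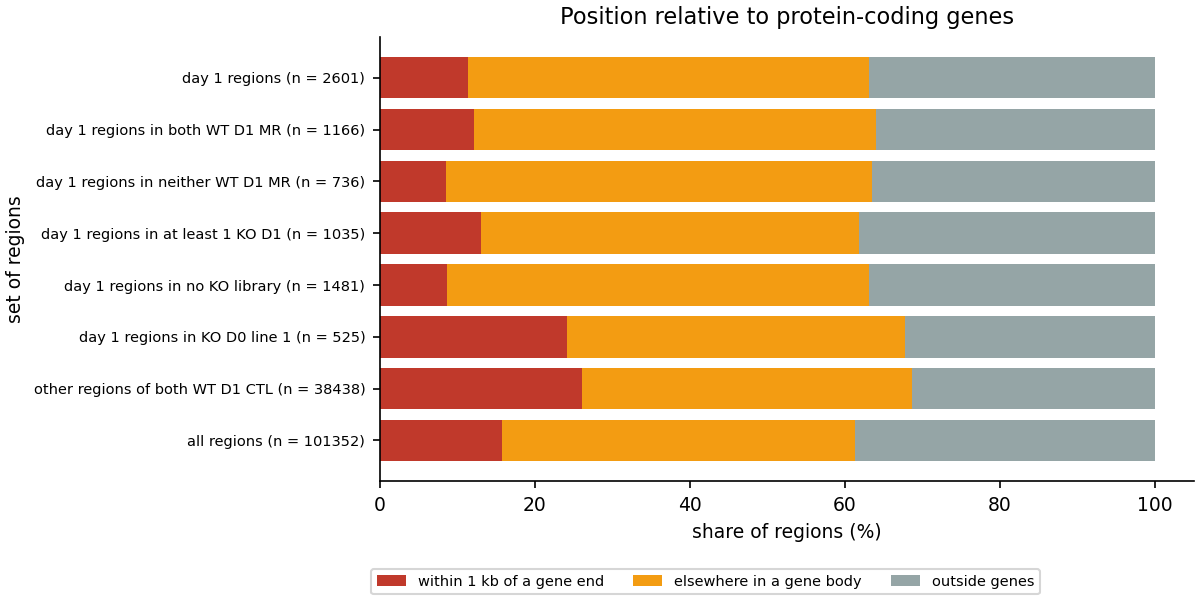
Share of regions within 1 kb of a protein-coding gene end (red), elsewhere in a gene body (orange) and outside genes (grey), for the regions open at day 1 only, for 5 subsets of them and for 2 wider sets. The red share is 11.3% in the day 1 regions, 24.2% in those called in KO D0 line 1 and 26.1% in the other regions of both WT D1 CTL.

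Their peaks were narrow. The median width of the peaks themselves was 86 bp in WT D1 CTL replicate 1 and 72 bp in replicate 2, against 188 and 156 bp for the other regions of both lists. In the fourth strength class the medians were 101 and 92 bp for members and 225 and 193 bp for the others, so members were narrower among peaks of like rank too. Merged regions had a median length of 128 bp for members and 332 bp for the others, a length that also grows with the number of lists that hold a region. Of the members, 212 (8.15%) lay within 10 kb of another member, and the median distance to the nearest other one was 132281 bp. Spacing was not measured for other sets of regions, so it cannot be called close or wide. Within 1 kb of a region open in all 10 WT libraries were 7.27% of members, against 7.01% of the other regions of both WT D1 CTL that were not themselves open in all 10.

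**Figure D5:**
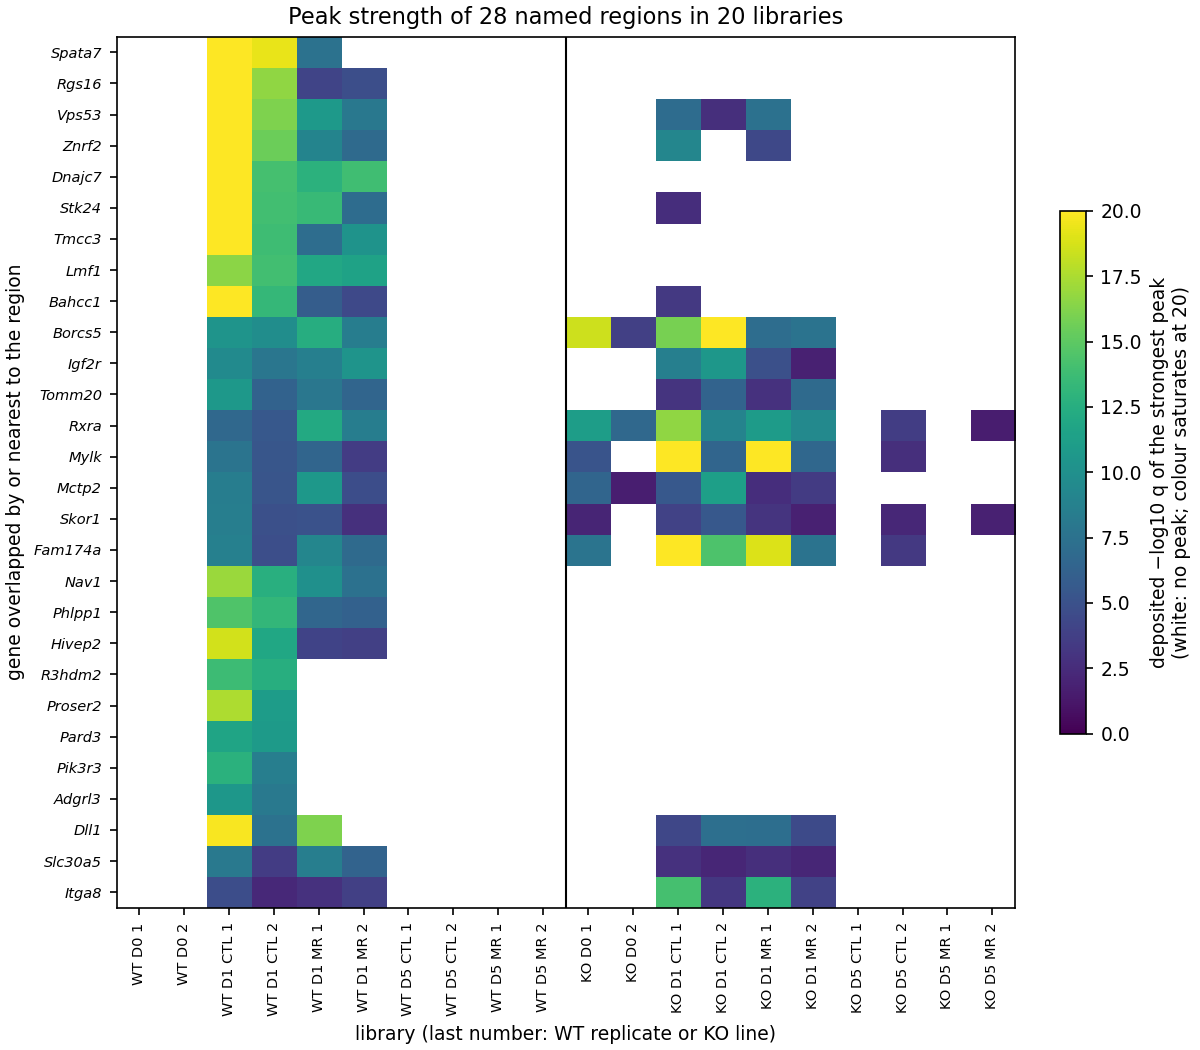
Deposited −log10 q of the strongest peak over 28 regions open at day 1 only (rows, named by gene) in the 20 libraries (columns, WT left of the line and KO right); white means no peak and colour saturates at 20. From top to bottom the rows hold 9 of the 10 strongest, the 8 strongest called in all 8 D1 libraries, 3 more called in both WT D1 MR and no KO library, 5 in neither WT D1 MR library, and 3 more in all 4 KO D1 and no KO D0 or D5 library.

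The 10 strongest members, ranked by the lower of their 2 percentiles, were mostly open in MR too. Both WT D1 MR libraries held 9 of them, at least 1 KO D1 library held 4, and no KO D0 or D5 library held any. Inside a gene lay 7, and 9 were under 200 bp long. The first was inside Spata7 (chr12:98656997-98657121), a gene of photoreceptor cilia, with a −log10 q of 26.6 and 19.4 in WT D1 CTL, 7.51 in WT D1 MR replicate 1 and no other peak. The second lay 762 bp from Rgs16 (chr1:153746230-153746392), a regulator of G-protein signalling, at 20.2 and 16.7 in CTL and 4.08 and 4.80 in MR. Both were weaker in the MR lists, on a scale that also depends on each library's depth. Inside Vps53 (chr11:76074802-76074960), a subunit of a Golgi tethering complex, values were 24.3 and 16.1 in CTL, 10.8 and 8.04 in MR, 7.08 and 2.70 in KO D1 CTL and 7.48 in KO D1 MR line 1. Inside Znrf2 (chr6:54881407-54881558), a ubiquitin ligase, they were 30.3 and 15.5, 8.99 and 6.92, then 9.20 and 4.32 in KO line 1 in CTL and MR.

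The other regions of the 10 had few or no KO calls. The region inside Dnajc7 (chr11:100594747-100594872), a co-chaperone, had 20.6 and 14.1 in CTL and 12.8 and 13.9 in MR. Its values in the 2 MR libraries were close to each other, and it had no KO peak. Tmcc3 (chr10:94563131-94563239) had 31.5 and 13.8, then 7.15 and 10.3, and Lmf1 (chr17:25608352-25609140), a lipase maturation factor, 16.5 and 14, then 12 and 11.5. Neither of these had a KO peak. Stk24 (chr14:121397565-121397711), a kinase, had 22.3 and 13.9 in CTL, 13.5 and 7.06 in MR and 2.61 in KO D1 CTL line 1. Bahcc1 (chr11:120293910-120294024) had 21.0 and 13.3, 5.89 and 4.38, and 3.33 in the same KO library. In total 538 members (20.7%) were called in both WT D1 MR libraries and in no KO library, against 6.83% of all regions.

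A small set of members was open in all 8 libraries of day 1. It held 45 members (1.73%), against 24.9% of all regions and 59.8% of the other regions of both WT D1 CTL. The strongest lay inside Borcs5 (chr6:134695780-134696312), a lysosome-positioning gene, with 10.4 and 9.83 in WT D1 CTL, 12.4 and 8.49 in WT D1 MR, 15.9 and 24.2 in KO D1 CTL, 7.19 and 7.64 in KO D1 MR, and 18.5 and 3.79 in KO D0. It was thus open in KO myoblasts at D0. The rule leaves every member without a WT D0 peak, so this is not a measured difference between KO and WT. The regions of this set inside Rxra, a nuclear receptor (chr2:27758374-27759060), and Mylk, myosin light chain kinase (chr16:34839549-34840181), also had KO D0 peaks. Rxra had 6.73 and 5.54 in WT D1 CTL and 12.2 and 8.46 in WT D1 MR. In KO it had 11.2 and 6.77 at D0, 16.6 and 8.95 in D1 CTL, 11 and 9.39 in D1 MR, and 3.63 and 1.58 in line 2 at D5. Mylk had 7.66 and 5.34, then 6.53 and 3.57 in WT, and 5.20 in KO D0 line 1, 28.4 and 6.53 in KO D1 CTL, 25.1 and 6.71 in KO D1 MR and 2.69 in KO D5 CTL line 2. In KO line 1 the Mylk value was thus higher in the D1 lists than in the D0 list, and there was no D5 call.

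Only 6 members (0.231%) were called in all 4 KO D1 libraries and in no KO library of D0 or D5, a pattern of 0.183% of all regions. The strongest lay 24115 bp from Igf2r, the receptor that clears IGF2 (chr17:12793821-12794196), with 9.55 and 7.83 in WT D1 CTL, 8.67 and 10.3 in WT D1 MR, 8.63 and 10.6 in KO D1 CTL and 4.87 and 1.84 in KO D1 MR. Next was a region 81725 bp from Dll1, a Notch ligand (chr17:15285470-15285629), with 19.8 and 7.55 in WT D1 CTL, 16.1 in WT D1 MR replicate 1, 4.25 and 7.32 in KO D1 CTL and 7.26 and 4.50 in KO D1 MR. Both had peaks in both KO lines at D1 and none at D0, while absence at D5 cannot be read for line 1, whose lists are short. A region 105607 bp from Tomm20, a mitochondrial import receptor (chr8:126824587-126825057), had 10.7 and 6.30, 7.90 and 6.55, 2.97 and 6.39, and 2.85 and 6.89 in the same order. For a region whose nearest gene is Slc30a5, a zinc transporter 420415 bp away (chr13:101253895-101254305), the values were 8.05 and 3.58, 8.57 and 6.39, 2.83 and 2.16, and 2.67 and 2.17. At 14500 bp from Itga8, an integrin (chr2:12316485-12316847), they were 4.73 and 2.33, 2.86 and 3.78, 14.1 and 3.22, and 12.9 and 3.92. The highest values were thus in KO line 1, on a scale that also depends on each library's depth.

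Gene lists were read against the 6.34% of all regions of both WT D1 CTL that were members. Their counts in other libraries, and those of single genes below, stand beside the shares of all members. Of all members 44.8% were in both WT D1 MR libraries and 39.8% in at least 1 KO D1 library, against 52.4% and 68.4% of all regions. A region was assigned to the gene it overlapped or, outside genes, to the nearest one. In all 2098 protein-coding genes had a member, 1728 of them 1, 280 had 2 and 90 had 3 or more.

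The share of members by genes of the myogenic programme was near that of all regions. Of 202 regions of both WT D1 CTL by 29 myogenic regulators, 9 were members (4.46%), by 8 genes, or 27.6% of the myogenic regulators with a region against 16% of all such genes: Eya1, Mrtfa, Mrtfb, Pax7, Pitx3, Six4, Tcf12 and Tcf4. No KO D1 library held any of these 9, where at least 1 such library held 39.8% of all members and 68.4% of all regions. Both WT D1 MR libraries held 3 of the 9, against 44.8% of all members and 52.4% of all regions. Pitx3, a homeodomain factor induced in differentiating muscle, had 2 of them. Its region at chr19:46141159-46141329 had 11.3 and 9.46 in WT D1 CTL and 10.3 and 4.68 in MR, and that at chr19:46147704-46147842 had 4.88 and 7.69, then 3.34 and 3.01. By Pax7, the satellite cell factor (chr4:139845781-139845867), the peak was called in CTL alone at 7.75 and 4.38. CTL-only members also lay inside Six4, Tcf12, Mrtfa and Mrtfb and 144815 bp from Eya1.

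Sarcomere and muscle structure genes had 10 members among 201 regions (4.98%) by 9 genes, and calcium handling and excitation genes 7 among 135 (5.19%) by 6 genes. Inside Myoz1, a Z-disc protein (chr14:20651140-20651226), the values were 11 and 5.76 in WT D1 CTL and there was no other peak. At 106270 bp from Nebl, an actin-binding Z-disc gene (chr2:17841219-17841320), they were 10.6 and 4.28 in CTL and 9.31 and 7.24 in MR. A region 81252 bp from Tpm1, tropomyosin (chr9:67130924-67131383), had 5.97 and 4.69 in WT D1 CTL, 5.23 in MR replicate 1, 7.64 and 1.23 in KO D1 CTL and 5.83 in KO D1 MR line 1. Of the 3, Tpm1 alone had KO peaks. Inside Ryr3, a calcium release channel (chr2:113030736-113030980), the values were 12.6 and 8.20 in CTL, 6.79 and 2.96 in MR and 5.09 in KO D1 CTL line 1. A member inside Asph (chr4:9456556-9456647), whose products include junctin, had higher values in MR, at 9.58 and 7.48 in CTL and 13.5 and 16.4 in MR. It had 5.35 and 5.61 in KO D1 CTL and 4.95 in KO D0 line 1. By Cacnb1, the muscle calcium channel beta subunit (chr11:98000502-98000602), the peak was in CTL alone at 9.19 and 4.45.

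Fusion and cell contact genes had 21 members among 272 regions (7.72%) by 15 genes, 9 in both WT D1 MR libraries and 9 in at least 1 KO D1 library. Inside Boc, a cadherin-linked co-receptor that promotes myogenesis (chr16:44503269-44503566), the values were 14.4 and 9.40 in WT D1 CTL, 7.80 and 4.71 in MR and 3.78 in KO D1 CTL line 1. Inside Cdh2, N-cadherin (chr18:16788720-16788845), they were 11.6 and 7.58, 2.64 and 6.20, and 5.01 in the same KO library. A region 1261 bp from Itga4, an integrin of myoblast contact (chr2:79253845-79254165), had 6.0 and 5.94, then 3.36 and 3.54, and no KO peak. Each of the 3 was open in both MR libraries and in at most 1 KO library.

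Lists of myogenic repressors and of Notch signalling had larger shares. Markers of other cell types had larger ones still, at 12.5% for neural, 11.8% for adipocyte and 10.9% for fibroblast genes. A share above that of all regions was thus not particular to repressors or Notch. Repressors had 18 members among 173 regions (10.4%) by 10 genes: Hdac4, Hdac9, Hes1, Heyl, Id2, Mdfi, Sox9, Twist2, Zeb1 and Zeb2. At least 1 KO D1 library held 8 of the 18. Notch genes had 16 among 157 (10.2%) by 11 of 22 genes with a region, among them the ligand Dll1, the receptors Notch2 and Notch3, the effector Rbpj, the target genes Hes1, Heyl and Nrarp and the glycosyltransferases Lfng and Rfng. Of the 16, both WT D1 MR libraries held 5 and at least 1 KO D1 library held 9. Hes1 and Heyl stand in both lists.

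Dll1 had 4 members, 9843 to 81725 bp from the gene. The region 81725 bp away is given above. At chr17:15350319-15350465 the values were 11.8 and 8.49 in WT D1 CTL, 3.16 in MR replicate 1 and 2.37 in KO D1 CTL line 1. At chr17:15329860-15330144 they were 4.06 and 1.51, 2.35 in MR replicate 1 and 2.93 in KO D1 CTL line 1. At chr17:15356654-15357511 they were 3.54 and 5.38 in CTL, with no MR peak, 6.52 and 3.83 in KO line 1 in D1 CTL and MR, and 2.58 in KO D0 line 1. All 4 had a peak in KO D1 CTL line 1 and 0 of 4 were in both WT D1 MR libraries. Heyl, a Notch-induced repressor, had a region at chr4:123260256-123260386 with 14.7 and 10.3 in CTL and 4.07 and 7.78 in MR, and one inside the gene at chr4:123237470-123237598 with 4.85 and 2.26 and 5.46 in MR replicate 1. Neither had a KO peak. Lfng (chr5:140608022-140608281) had 5.51 and 5.38 in CTL, 7.98 and 6.52 in MR, 2.12 and 5.67 in KO D1 CTL, 1.45 in KO D1 MR line 1 and 3.36 and 1.84 in KO D0.

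Among repressors outside the Notch pathway, a region 64281 bp from Zeb2 (chr2:45181723-45181825) had 10.5 and 8.70 in WT D1 CTL and 2.99 in MR replicate 1. One by Hdac4, a class IIa deacetylase that holds Mef2 in check (chr1:91920227-91920298), had 9.64 and 6.71 in CTL alone. Neither had a KO peak. A member inside Twist2 had 4.51 and 7.29 in CTL and 1.82 in KO D1 CTL line 1.

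IGF and PI3K signalling genes had 23 members among 212 regions (10.8%) by 13 genes, 10 in both WT D1 MR libraries and 14 in at least 1 KO D1 library. Inside Akt2 lay 3 of them, the gene of a kinase isoform of insulin signalling in muscle. The strongest of these (chr7:27604708-27604797) had 7.36 and 5.62 in WT D1 CTL, 3.03 and 2.73 in MR and 3.81 in KO D1 CTL line 1. The next (chr7:27597137-27597338) had 2.83 and 3.17, 1.70 in MR replicate 2 and 2.26 in KO D1 MR line 1. The last (chr7:27601691-27601789) had 2.32 and 1.82 and no other peak. Igfbp5, an IGF-binding protein secreted by differentiating myoblasts, also had 3. Its region inside the gene (chr1:72868898-72869421) had 4.85 and 3.71 in CTL, 3.37 and 2.76 in MR and 3.65 and 2.91 in KO line 1 in D1 CTL and MR. The one 101 bp from the gene (chr1:72874966-72875188) had 3.22 and 2.38, 4.91 in MR replicate 1, 3.81 in KO D1 CTL line 1 and 6.80 in KO D0 line 1. The last, 2591 bp away (chr1:72855407-72855474), had 5.18 and 1.99 in CTL and 1.66 in KO D1 CTL line 2.

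Other signalling lists were nearer the share of all regions or below it. Wnt genes had 16 members among 193 regions (8.29%), 11 of them in both WT D1 MR libraries. Inside Ctnnb1, beta-catenin (chr9:120947898-120948040), the values were 15.6 and 8.56 in WT D1 CTL, 2.66 in MR replicate 1, 15.4 and 6.39 in KO D1 CTL and 4.56 in KO D0 line 1. At 17862 bp from Tcf7l2, a Wnt-responsive factor (chr19:55951521-55951642), they were 12.1 and 6.09, 7.84 and 4.67, and 22.7 and 6.30 in KO line 1 in D1 CTL and MR. In KO D1 CTL line 1 the first was within the range of the WT values and the second above it. FGF, EGF, HGF and MAPK genes had 17 among 207 (8.21%), and Tead, Yap and cytoskeletal genes 19 among 277 (6.86%). AP-1 genes had 6 members among 79 regions (7.59%), Runx, Fox and other lineage factors 19 among 402 (4.73%), and inflammatory and interferon genes 10 among 216 (4.63%). TGF-beta, BMP and activin genes had 6 among 201 (2.99%), the lowest share of the 21 lists. One of these, inside Smad7, an inhibitor of the pathway (chr18:75369274-75369430), had 11.7 and 6.77 in WT D1 CTL, 6.53 and 11 in MR, 4.13 and 9.04 in KO D1 CTL, 1.23 in KO D1 MR line 2 and 5.92 and 1.58 in KO D0.

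Cell cycle genes had 12 members among 221 regions (5.43%), of which 2 were in both WT D1 MR libraries. Of the 12, 4 had Mki67 as nearest gene, the proliferation marker, at 19252 to 343606 bp from it, so the assignment is by nearness alone. The closest (chr7:135735702-135736021) had 11.4 and 6.76 in WT D1 CTL, 8.24 in MR replicate 1, 4.45 and 5.72 in KO D1 CTL, 4.79 in KO D1 MR line 1 and 4.05 in KO D0 line 1. Extracellular matrix and integrin genes had 29 among 502 (5.78%), 18 in both WT D1 MR libraries and 14 in at least 1 KO D1 library. A region nearest to Adamts5, an aggrecanase, but 572353 bp from it (chr16:86473478-86473590), had the highest value of any member in WT D1 CTL replicate 1, 38.4, with 12.9 in replicate 2, 24.7 and 16.2 in MR and 8.80 and 8.40 in KO D1 CTL. Inside Col19a1, a minor collagen gene (chr1:24539988-24540096), the values were 21.7 and 12.2, 15.9 and 9.02, and 3.39 and 3.89 in KO line 1 in D1 CTL and MR. By Nid1, nidogen of basement membranes (chr13:13435280-13435347), they were 11.2 and 7.35 in CTL and 14.2 and 12.6 in MR.

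Amino acid response and methionine cycle genes had 10 members among 149 regions (6.71%) by 8 genes, 3 in both WT D1 MR libraries. A member inside Slc38a1, an amino acid transporter (chr15:96631487-96631618), had 6.86 and 4.28 in CTL, 9.29 and 7.43 in MR and 3.26 in KO D0 line 1. Inside Mthfd1l, a folate enzyme of mitochondria (chr10:4069438-4069539), the values were 6.42 and 7.34 in CTL and there was no other peak. Kdm4b, a histone H3 demethylase, had 3 members within the gene. The strongest (chr17:56345516-56345591) had 10.1 and 5.18 in CTL, and no library other than WT D1 CTL held any of the 3.

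Some genes had members in number. Zmiz1, a co-regulator of transcription, had 10 among its 64 regions of both WT D1 CTL, 7 in both WT D1 MR libraries and 2 in at least 1 KO D1 library. Fyn, a Src-family kinase, had 8 among 24, of which 2 were in both MR libraries and 3 in a KO D1 library. Its strongest (chr10:39417687-39418020) had 12.9 and 10.4 in CTL and 11.1 and 18.2 in MR, with no KO peak. Gse1 had 7 among 49, with 4 in both MR libraries and 4 in a KO D1 library. Sorcs2, a sorting receptor, had 5 among 40, all inside the gene, with 0 in both MR libraries and 0 in any KO D1 library. Cd82, a tetraspanin, had 5 among 21, and 4 of these lay in a run from chr2:93411169 to 93427257. The strongest of the run (chr2:93427144-93427257) had 23.7 and 7.50 in CTL and 2.65 and 5.71 in MR. The one nearest the gene end, 424 bp away (chr2:93418519-93418678), had 7.49 and 5.65 in CTL, 6.22 and 6.45 in MR, 3.86 and 3.01 in KO line 1 in D1 CTL and MR and 2.72 in KO D0 line 1. Genes with many members are mostly long or hold many regions, so these counts are not rates.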

How the data were processed

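Per the labels' protocols, lysed C2C12 cells were tagmented with a commercial kit and sequenced as paired ends. The deposited files are 1 broad peak list per library, with no list for pooled libraries. For each peak the authors deposited a score, its fold over background (a ratio), a −log10 p and a −log10 q. The lowest −log10 q in any deposited list was 1.00. The genome build is GRCm38, per the submitters' processing notes, and the gene table, promoter windows and miRNA sequences are RefSeq's of GRCm38.p6. Aligner, filters, peak caller and the shift of reads for the transposase are not given in the sources used here, and read totals were not used here. Fold and −log10 values depend on depth and rank peaks within a list only.

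Peaks were merged at 1 bp (Python 3.11.15, numpy 2.4.6, pandas 2.3.3) and shares given with 95% Wilson intervals (statsmodels 0.14.6). Strength is the −log10 q of the strongest overlapping peak, and its percentile within the list. Background pileup was solved from the most frequent combination of fold and −log10 p in each list under assumed formulas. KO D1 was tested against KO D0 and D5 per region by an exact permutation test over 210 arrangements (smallest p 0.00476) with Benjamini-Hochberg adjustment. The test was tried on simulated calls. KO libraries of 1 line come from the same cells, so the line served as a replicate block in an alternative.

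Members and gene lists were chosen with earlier results of these data known. Named members were the 10 strongest by the lower of 2 percentiles, the first 8 in all D1 libraries, the first 8 in both WT D1 MR and no KO library, the first 5 in no WT D1 MR library, the first 5 in all 4 KO D1 and no KO D0 or D5 library, the first 3 of each list, those of the 5 genes with most members and the first 5 at promoters. The second members of listed genes (Heyl, Dll1, Akt2, Igfbp5, Lfng, Twist2, Kdm4b), the myogenic regulators with CTL-only members and the miRNAs were named after their values were seen. Some named members are not reported here. Alternatives were peaks with a −log10 q of at least 2, calls over at least 50% of the region, the 20000 strongest peaks per list, absence within 1 kb, the replicate block and leaving out libraries.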

Additional observations from a re-analysis of the deposited data

How the results depend on the processing

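The number of members was 2601 and ranged from 2621 to 9729 when single libraries of the rule were left out, with 9729 reached without WT D1 CTL replicate 2. With the 20000 strongest peaks per list there were 639 members, of which 17.1% were in both WT D1 MR, 4.23% in both KO D1 CTL and 2.03% in both KO D1 MR libraries, and 12.4% were in both WT D1 MR and neither KO D1 MR library. Calls over at least 50% of the region gave 41.0%, 8.83%, 2.24% and 30.5% for these 4 shares, and 13.7% of members at gene ends. Requiring no WT D0 or D5 peak within 1 kb lowered the gene-end share to 7.12%. Leaving out 1 library gave 28.1% to 67.7% in both WT D1 MR, 9.56% to 30.4% in both KO D1 CTL, 2.67% to 17.4% in both KO D1 MR, 10.9% to 12.2% at gene ends, and 20.6% to 35.5% in both WT D1 MR and neither KO D1 MR. The highest of the first 3 come from leaving out 1 of the 2 libraries counted. Of regions chosen with WT D1 CTL replicate 1, the share in CTL replicate 2 was 24.8% with a −log10 q of at least 2, 38.5% with 20000 peaks and 24.2% with 50% coverage, and the share in MR replicate 2 was 15.5% and 30.3% with the last 2. With 20000 peaks the control replicate thus held more of the chosen regions than the MR replicate, the opposite of the lists as deposited. For every moved value the cause was not tested.

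With KO line as the replicate block, 0 of 15532 testable regions passed the exact permutation test of KO D1 against D0 and D5, 932 (6.0%) had an unadjusted p under 0.05, and members gave 47 of 180 (26.1%). Under the other alternatives run the test also called 0, and each such 0 is bound by the limit of the smallest p described above. Without either KO line no region can be tested, since the smallest p is 0.1. A missing peak is not an absence of signal, and read depth was not used here, so weak members cannot be told from weak signal missed elsewhere.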

Other observations

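The same kind of definition for the other WT groups gave 1197 regions called in both WT D0 libraries and in no WT D1 CTL or D5 library, 163 called in both WT D5 CTL libraries and in no WT D0 or D1 CTL library, and 1670 for WT D5 MR. The members' share of the regions of both WT D1 CTL lay between 5.20% on chromosome 19 and 7.23% on chromosome 18.

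Markers of other cell types also had members. Of the regions of both WT D1 CTL by listed fibroblast genes 5 of 46 (10.9%) were members, by adipocyte genes 6 of 51 (11.8%), by osteoblast and chondrocyte genes 6 of 77 (7.79%) and by neural genes 4 of 32 (12.5%), against 6.34% over all genes. A member inside Pdgfra (chr5:75156898-75157308), a mesenchymal growth factor receptor, had a −log10 q of 8.26 and 11.8 in WT D1 CTL, 11.2 and 11.6 in WT D1 MR, 5.45 in KO D1 CTL line 1, 2.15 and 1.31 in KO D1 MR, 5.42 in KO D0 line 1 and 2.93 in KO D5 CTL line 2. A member 3347 bp from Dpt, a fibroblast matrix gene (chr1:164793101-164793316), had 11.3 and 5.07 in WT D1 CTL, no peak in WT D1 MR and 9.67 and 10.4 in KO line 1 in D1 CTL and MR. By Sox10, a neural crest factor (chr15:79166890-79166986), the peak was called in WT D1 CTL alone at 5.03 and 3.83. Inside Runx2, the osteoblast factor (chr17:44643418-44643554), the values were 12.2 and 4.87 in CTL and 4.11 and 3.60 in MR. Among inflammatory genes, a member 506 bp from an end of Ackr3, a chemokine receptor (chr1:90215047-90215218), had 16.8 and 9.94 in CTL, 6.41 and 4.26 in MR and 7.42 and 4.17 in KO D1 CTL.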
